A study of Mus musculus with 5 samples.

Results

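The mouse mitochondrial genome holds 37 annotated genes, and their RNA was measured in brown adipose tissue (BAT), in 1 library from each of 3 ATF4 BKO and 2 WT mice. The members are all genes whose symbol starts with mt-, among 52022 genes with a matched transcript, and they comprise 13 mRNAs, 2 rRNAs and 22 tRNAs. ATF4 BKO mice carried floxed Atf4 alleles (Atf4 fl/fl) and a Cre recombinase driven by the Ucp1 promoter, which is active in thermogenic adipocytes. WT mice were littermates with the same floxed alleles and no Cre. All mice were labelled male, were on a C57Bl/6J background, were 10 to 12 weeks old, and had spent 7 days at 30 °C followed by 3 days at 4 °C. Other cells of the tissue keep Atf4 in this model, and the genotypes differ in the presence of Cre.

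Mitochondrial DNA encodes core subunits of complexes I, III, IV and V of the oxidative phosphorylation system, while complex II and all other subunits are encoded in the nucleus. Both DNA strands are transcribed as long precursors by the polymerase POLRMT with TFAM and TFB2M, and the tRNAs that lie between most genes are cut out to release the mRNAs and rRNAs. Brown adipocytes are packed with mitochondria, where UCP1 lets protons bypass ATP synthase and so produces heat.

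The deleted gene had 32.6, 52.6 and 23.4 CPM (counts scaled for library size with TMM factors) in ATF4 BKO replicates 1, 2 and 3 and 285 and 226 CPM in WT replicates 1 and 2, so Atf4 RNA was lower in every ATF4 BKO mouse. Estimated counts summed to between 24698337 and 32452751 per library, and 13 of 13 brown adipocyte markers were detected, with Ucp1 between 9754 and 13066 CPM. Brown adipocyte markers (13 genes) summed to 26300, 22594 and 28297 CPM in ATF4 BKO replicates 1, 2 and 3. In WT replicates 1 and 2 the sums were 21736 and 23863 CPM, so the groups overlapped. Of these markers, 10 had a log2 fold change above 0 and 3 below, where 8425 of 16450 genes tested lay above 0. Their median was 0.17, and it ran from 0.063 to 0.25 with single mice left out. ATF4 BKO replicate 1 had 4598 counts of Xist despite its label, and the other libraries had at most 7. WT replicate 2 had 2722 CPM summed over the 21 of 22 skeletal muscle markers that passed the count filter, against 156 in WT replicate 1 and 44.5 to 62.9 in the ATF4 BKO mice. Erythroid markers (5 genes) summed to 3307 CPM in WT replicate 1 and to between 1344 and 2025 in the other mice. Immune markers (11 genes) ranged from 296 to 718 CPM in the ATF4 BKO mice and from 121 to 573 in the WT mice. Endothelial markers (5 genes) summed to 1002, 948 and 1226 CPM in ATF4 BKO replicates 1, 2 and 3 and to 760 and 901 CPM in WT replicates 1 and 2, so these sums did not overlap. All 5 had a log2 fold change above 0, with a median of 0.34 that ran from 0.28 to 0.54 with single mice left out. White adipocyte markers (4 genes) summed to between 18.2 and 38.1 CPM in the ATF4 BKO mice and to 37.8 and 40.7 CPM in the WT mice, which overlapped. The part of these cells in the results below was not tested.

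The 12 mRNAs transcribed from the heavy strand and both rRNAs lie on the plus strand of chromosome M in the annotation (GRCm38), and mt-Nd6 alone among the mRNAs lies on the minus strand, at chrM:13552-14070. Complex I takes 7 of the mRNAs, complex III 1, complex IV 3 and complex V 2. Neighbouring mRNAs overlap in places. mt-Atp8 runs from 7766 to 7969 and mt-Atp6 from 7927 to 8607, so that 43 bases belong to both, and mt-Nd4l and mt-Nd4 share 7. The shared stretch of mt-Atp8 and mt-Atp6 (chrM:7927-7969, plus strand) is shown because a read inside it fits both genes. Its first capitals are the start codon of mt-Atp6 and its last capitals the stop codon of mt-Atp8.
mt-Atp8 and mt-Atp6: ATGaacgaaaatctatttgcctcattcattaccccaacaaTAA

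A stretch of nuclear chromosome 1 carries close copies of several of these genes, and reads from them cannot be placed with certainty. Such nuclear copies are remnants of mitochondrial DNA inserted into a chromosome, and all 7 that share at least 50% of their 31-base words with a mitochondrial mRNA are annotated as unprocessed pseudogenes on the minus strand between 24611535 and 24616197. Every 31-base word of mt-Co2 also occurs in a nuclear transcript, as do 99.9% of those of mt-Co3, 99.5% of mt-Atp6, 98.9% of mt-Nd4l, 98.1% of mt-Nd3, 63.9% of mt-Co1 and 62.8% of mt-Nd4. For the other mRNAs this share was at most 16.8%, reached by mt-Nd5, and it was 0% for mt-Nd1. The ends of mt-Co2 (chrM:7667-7696) and mt-Atp6 (chrM:8578-8607) are shown beside those of their copies Gm28661 (chr1:24614885-24614911) and Gm10925 (chr1:24613974-24614000), because the annotated copies match the genes base for base up to this point, over 681 and 678 bases. The capitals mark the stop codon, which lies beyond the annotated end of each copy.
mt-Co2: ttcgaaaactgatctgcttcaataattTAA
Gm28661: ttcgaaaactgatctgcttcaataatt
mt-Atp6: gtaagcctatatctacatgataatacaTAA
Gm10925: gtaagcctatatctacatgataataca

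The copies of mt-Nd3 and mt-Co1 carry substitutions. Gm28438 covers 345 of the 348 bases of mt-Nd3 and differs from it at 1 of them (T3C, counted from the first base of mt-Nd3). Gm29216 covers the last 492 of the 1545 bases of mt-Co1 and differs at 6 of them (T1056A, C1057T, A1059G, A1060G, C1062A and A1066T, counted from the first base of mt-Co1). The windows around these differences are chrM:9459-9476 and chrM:6381-6408, beside chr1:24613102-24613119 and chr1:24616170-24616197 read on the minus strand. They are shown because these few bases, in capitals, are the differences between gene and copy within the part that the copy covers.
mt-Nd3: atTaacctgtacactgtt
Gm28438: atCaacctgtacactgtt
mt-Co1: ggTCtAAcCggaAttgttttatccaact
Gm29216: ggATtGGcAggaTttgttttatccaact

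Kallisto, the authors' counter, divides reads that fit several transcripts among them, and for 3 pairs the division differed between mice. Gm10925 received 16.5%, 13.6% and 2.60% of the counts of the mt-Atp6 pair in ATF4 BKO replicates 1, 2 and 3 and 30.9% and 16.6% in WT replicates 1 and 2. Gm28661 received 2.81%, 2.34% and 1.45% of the mt-Co2 pair in the ATF4 BKO mice and 14.1% and 5.83% in the WT mice. Gm28438 received 9.74%, 28.1% and 0.949% of the mt-Nd3 pair in the ATF4 BKO mice and 32.5% and 25.5% in the WT mice. In all 3 pairs the copy's part was lowest in ATF4 BKO replicate 3 and highest in WT replicate 1, and for mt-Atp6 and mt-Co2 both WT mice lay above all ATF4 BKO mice. The mt-Co1 pair behaved otherwise, with 13.97%, 14.1% and 15.4% on Gm29216 in the ATF4 BKO mice and 14.3% and 13.4% in the WT mice. The copies of mt-Nd4 and mt-Nd4l were listed at 0 in every mouse, and the copy of mt-Co3 received at most 0.0503% of its pair. Values below are therefore given as deposited and, where it matters, with the counts of each copy added to its mitochondrial gene.

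**Figure D1:**
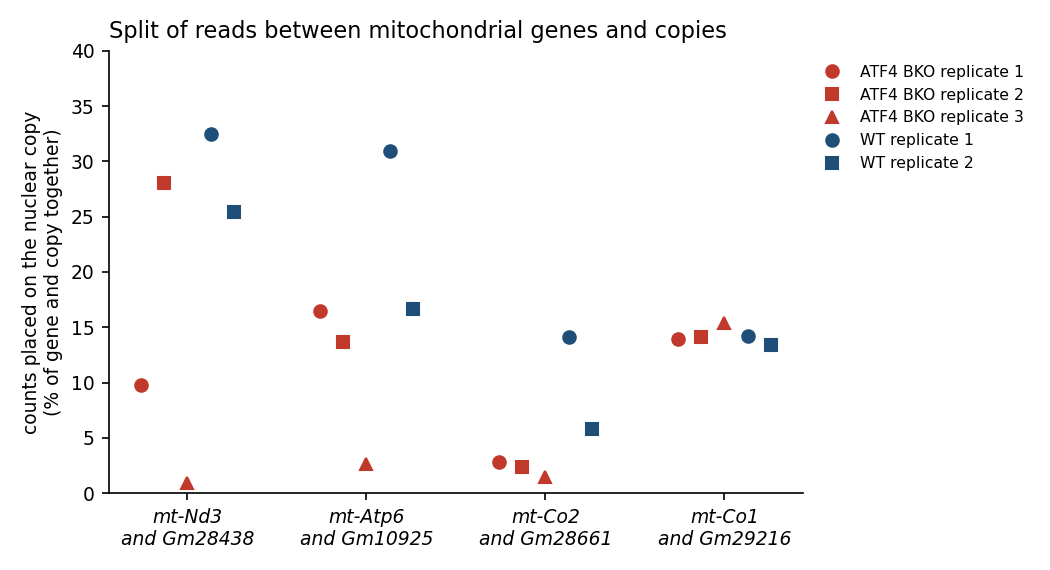
Counts placed on a nuclear copy as a percentage of the counts of the mitochondrial gene and its copy together (y axis), for the 4 pairs in which the copy holds at least 1% of the pair over all mice, 1 point per mouse (red, ATF4 BKO; blue, WT). For mt-Atp6 the share ran from 2.60% in ATF4 BKO replicate 3 to 30.9% in WT replicate 1, whereas for mt-Co1 it lay between 13.4% and 15.4%.

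Mitochondrial mRNAs took a larger share of all counts in the ATF4 BKO mice than in the WT mice. The 13 mRNAs together held 20.5%, 16.4% and 18.4% of the counts in ATF4 BKO replicates 1, 2 and 3 and 12.8% and 13.4% in WT replicates 1 and 2. In bulk tissue, more cells of a type and more RNA per cell cannot be told apart. The groups did not overlap, and their means were 18.4% ± 2.05 (SD, n = 3) and 13.1% ± 0.469 (SD, n = 2), a difference of 5.35 percentage points. With 10 ways to split 5 mice, a two-sided exact permutation test cannot give a p under 0.2, which is the value it gave (adjusted p = 0.467 over 7 such tests). With the copies added, the shares were 21.8%, 17.4% and 19.1% against 13.9% and 14.3%, and the difference was 5.33 points. Sample names carry 1 of 2 prefixes of unstated meaning, and the difference was 5.72 points within the first (ATF4 BKO replicates 1 and 2, WT replicate 1) and 4.94 within the second (ATF4 BKO replicate 3, WT replicate 2). Leaving out each mouse in turn gave between 4.30 and 6.35 points. Counting error was small beside these values, since the widest 95% interval (Wilson) of a share spanned 0.032 points, and such intervals cover counting error only.

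**Figure D2:**
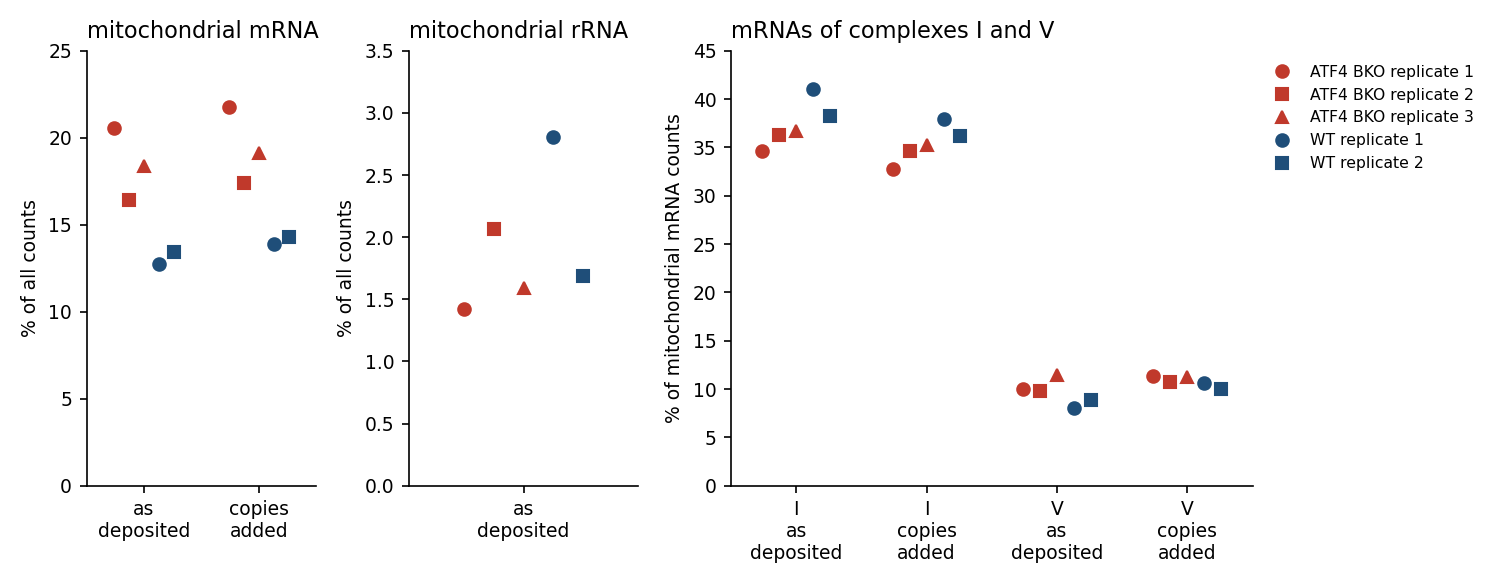
Shares of counts in each mouse (1 point per mouse; red, ATF4 BKO; blue, WT). Left, the 13 mitochondrial mRNAs as a percentage of all counts, as deposited and with nuclear copies added, where every ATF4 BKO mouse lies above both WT mice. Middle, the 2 rRNAs, where WT replicate 1 is highest at 2.80% and the groups overlap. Right, mRNAs of complexes I and V as a percentage of the mitochondrial mRNA counts.

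Each of the 13 mRNAs was higher in all ATF4 BKO mice than in both WT mice, on the CPM scale and on that of TPM (counts divided by effective length, with one common total for every library). Over all 16450 genes tested, 8.95% lay higher in this way, and the mRNAs are cut from shared precursors, so they are not independent. The log2 fold changes ran from 0.27 for mt-Nd5 to 1.04 for mt-Nd3, with a median of 0.52 against 0.0077 over all genes tested, and the median was also 0.52 in a fit blocked on the prefix of the sample name. The edgeR quasi-likelihood test called 0 of the 13 after Benjamini-Hochberg adjustment over all genes tested, with a smallest adjusted p of 0.831, although 7 had an unadjusted p under 0.05, as did 1.81% of all genes tested in this direction. It called 1 gene higher in the ATF4 BKO mice among all tested, or 0.00608%. DESeq2, the tool the study's methods name, called 2 members, mt-Atp6 and mt-Co2, beside 0.128% of all genes tested called higher, and 12 of the 13 had an unadjusted p under 0.05, as did 2.09% of all genes tested in this direction. With the copies added, DESeq2 called 0 of the 13, against 0.116% of all genes tested, and edgeR again called 0. For the deleted gene Atf4, the log2 fold change was -2.82 (edgeR). Its adjusted p was 0.671 by edgeR, which thus did not call it, and 9.7e-12 by DESeq2.

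The 3 genes with the largest fold changes were the 3 whose reads were divided differently between mice. mt-Nd3, a small membrane subunit of complex I, had 2324, 1174 and 2197 CPM in ATF4 BKO replicates 1, 2 and 3 and 859 and 982 CPM in WT replicates 1 and 2. ATF4 BKO replicate 2 lay closer to the WT mice than to the other ATF4 BKO mice. The log2 fold change was 1.04 (standard error 0.33), and with Gm28438 added the values became 2575, 1633 and 2218 CPM against 1273 and 1317 CPM and the log2 fold change 0.73 (standard error 0.23). Its adjusted p was 0.910 with edgeR and 0.152 with DESeq2, and 0.911 and 0.245 with the copy added.

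mt-Atp6, the subunit of ATP synthase through which protons pass, had 22125, 15546 and 21939 CPM in ATF4 BKO replicates 1, 2 and 3 and 9833 and 11209 CPM in WT replicates 1 and 2. The lowest ATF4 BKO mouse stood well above the highest WT mouse, and the log2 fold change was 0.92 (standard error 0.26). By DESeq2, mt-Atp6 rose in the ATF4 BKO mice (adjusted p = 0.0193), but by edgeR it did not pass the threshold (adjusted p = 0.831). With Gm10925 added, the values were 26503, 18001 and 22524 CPM against 14229 and 13443 CPM, a log2 fold change of 0.69 (standard error 0.26). The DESeq2 adjusted p was then 0.187. Both WT mice moved closer together once the copy was added, from an SD of 973 to one of 556 CPM. The SD of the ATF4 BKO mice went from 3746 to 4254 CPM.

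mt-Co2, the subunit of complex IV that takes electrons from cytochrome c, had 27268, 17964 and 22461 CPM in ATF4 BKO replicates 1, 2 and 3 and 10314 and 13182 CPM in WT replicates 1 and 2. All ATF4 BKO mice were above both WT mice, and the log2 fold change was 0.94 (standard error 0.28), with an adjusted p of 0.0343 by DESeq2 and 0.872 by edgeR. With Gm28661 added, the values were 28060, 18395 and 22791 CPM against 12008 and 13995 CPM, a log2 fold change of 0.83 (standard error 0.27) and a DESeq2 adjusted p of 0.0827. The DESeq2 calls of mt-Atp6 and mt-Co2 also depended on single mice. Without ATF4 BKO replicate 1 or without ATF4 BKO replicate 3, DESeq2 called 0 of the 13 mRNAs. In either direction it then called 120 of 16320 and 56 of 16205 genes tested. Without ATF4 BKO replicate 2 it called 10 of the 13, beside 205 of 16148 genes tested called in either direction.

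**Figure D3:**
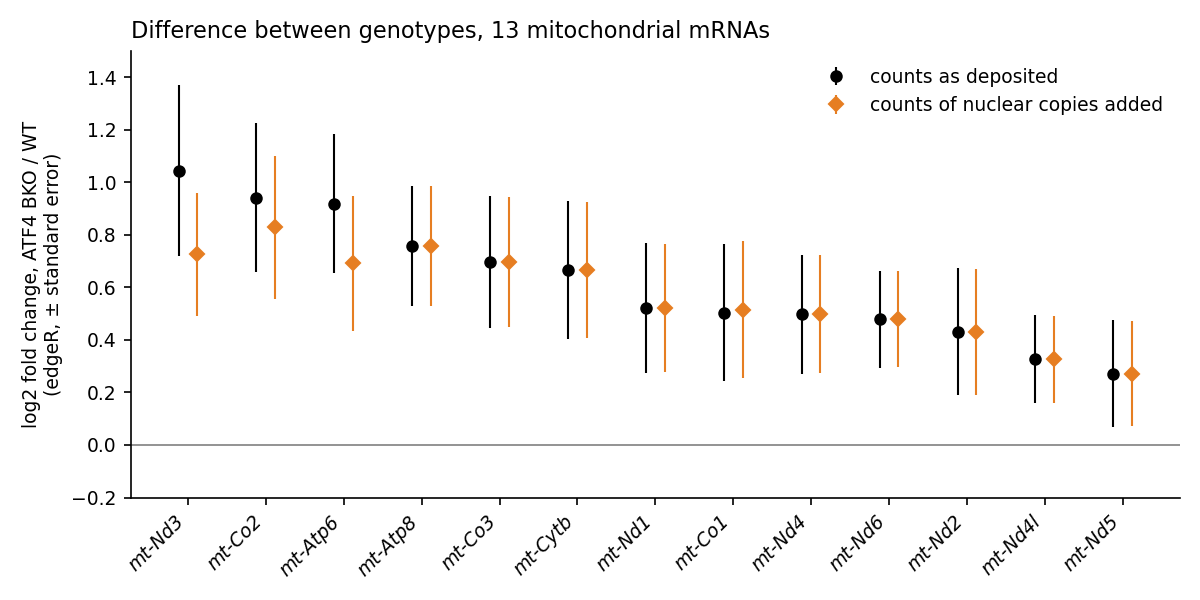
Log2 fold change of each of the 13 mitochondrial mRNAs between ATF4 BKO and WT mice (y axis; edgeR, bars are standard errors), from counts as deposited (black) and with counts of nuclear copies added (orange). mt-Nd3 moves from 1.04 to 0.73, mt-Atp6 from 0.92 to 0.69 and mt-Co2 from 0.94 to 0.83, and the other 10 stay in place.

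Complex IV has 2 further mitochondrial subunits. mt-Co1, its catalytic core, had 47276, 34989 and 39491 CPM in ATF4 BKO replicates 1, 2 and 3 and 27461 and 29814 CPM in WT replicates 1 and 2, the largest number of counts of any member. The groups did not overlap, and the log2 fold change of 0.50 (standard error 0.26) became 0.51 with Gm29216 added. Gm29216 covers 492 of the 1545 bases of mt-Co1, while 63.9% of the 31-base words of mt-Co1 occur in nuclear transcripts. Counts of nuclear genes outside the 7 copies were not added. mt-Co3 had 22208, 15335 and 18269 CPM in the ATF4 BKO mice and 11554 and 11403 CPM in the WT mice, and its log2 fold change was 0.70 (standard error 0.25). The WT mice lay closer together than any pair of ATF4 BKO mice for this gene.

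mt-Cytb, the cytochrome b of complex III and its sole mitochondrial subunit, had 25727, 17569 and 19564 CPM in ATF4 BKO replicates 1, 2 and 3 and 13668 and 12755 CPM in WT replicates 1 and 2. Again no ATF4 BKO mouse reached down to the WT mice, and the log2 fold change was 0.67 (standard error 0.26). mt-Atp8, a short accessory subunit of ATP synthase, had 113, 68.03 and 88.9 CPM in the ATF4 BKO mice and 56.4 and 49.9 CPM in the WT mice, a log2 fold change of 0.76 (standard error 0.23). Its counts were far below those of mt-Atp6, which shares its messenger. The annotated gene has 204 bases, for which the deposited tables give an effective length of 26.1 bases, and its level per length rests on that figure.

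The remaining complex I mRNAs had log2 fold changes between 0.27 and 0.52. mt-Nd1 had 25119, 17969 and 21299 CPM in ATF4 BKO replicates 1, 2 and 3 and 14844 and 15064 CPM in WT replicates 1 and 2, a log2 fold change of 0.52 (standard error 0.25). None of its words occur in nuclear transcripts, so this value is free of the division of reads described above. mt-Nd2, mt-Nd4 and mt-Nd4l, which encode 3 other membrane subunits of complex I, had log2 fold changes of 0.43, 0.50 and 0.33. mt-Nd5, at the far end of the membrane arm, had 9610, 8534 and 10289 CPM in the ATF4 BKO mice and 8206 and 7497 CPM in the WT mice. The lowest ATF4 BKO mouse was only slightly above the highest WT mouse, and the log2 fold change of 0.27 (standard error 0.20) was the smallest among the 13 mRNAs. Over the 14 alternatives to this fit, each of the 13 mRNAs kept a log2 fold change above 0, at the lowest 0.088 for mt-Nd5.

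mt-Nd6, the mRNA of the light strand, had 2879, 2426 and 3049 CPM in ATF4 BKO replicates 1, 2 and 3 and 1944 and 2055 CPM in WT replicates 1 and 2. It was higher in each ATF4 BKO mouse, at a log2 fold change of 0.48 (SE 0.18). Relative to the 12 heavy-strand mRNAs, the log2 ratio of its counts was -6.24, -6.01 and -5.96 in the ATF4 BKO mice and -5.97 and -5.92 in the WT mice. These ratios overlapped between the groups (difference -0.126, two-sided exact permutation p = 0.4, adjusted p = 0.56), and the difference was -0.040 without ATF4 BKO replicate 1. They did not overlap without ATF4 BKO replicate 3 or without WT replicate 1. On the TPM scale the log2 ratio was -5.13, -4.87 and -4.85 in the ATF4 BKO mice and -4.78 and -4.76 in the WT mice, without overlap (difference -0.183, two-sided exact permutation p = 0.2). The libraries were made with a stranded kit, but whether the counting used strand is not stated, and without it mt-Nd6 and RNA from the opposite strand cannot be told apart. The sequenced RNA was selected by poly(A) tails, and mt-Nd6 mRNA is known to lack a long tail.

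Per length, mt-Co2 and mt-Atp6 had the highest group means among the mitochondrial mRNAs. In TPM, mt-Co2 stood at 50641 ± 7305 (SD, n = 3) in the ATF4 BKO mice and 30207 ± 6203 (SD, n = 2) in the WT mice, and mt-Atp6 at 44895 ± 5830 and 27184 ± 3415. mt-Co2 was above mt-Atp6 in each of the 5 mice as deposited, although their ranges over mice overlapped. In WT replicate 1, mt-Co1 (24772 TPM) was level with mt-Atp6 (24769 TPM). mt-Co3, mt-Co1 and mt-Nd1 followed at 34654, 32910 and 30876 TPM in the ATF4 BKO mice and at 24395, 26482 and 24535 TPM in the WT mice, and their order differed between the genotypes. In the WT mice, mt-Nd1 (24535 ± 1072) and mt-Co3 (24395 ± 586) differed by less than their spread. With the copies added, mt-Co1 was the third in all 5 mice, at a mean of 38483 TPM in the ATF4 BKO mice and 30718 TPM in the WT mice. mt-Cytb was the sixth in every mouse, at 24165 ± 3556 TPM in the ATF4 BKO mice and 17370 ± 271 TPM in the WT mice. With the copies added, the leading pair changed places in the WT mean, with mt-Atp6 at 35673 ± 241 and mt-Co2 at 33397 ± 4718 TPM.

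At the lower end, mt-Nd5 was the 12th and mt-Atp8 the 13th in all 5 mice. The rank of mt-Atp8, which shares its messenger with mt-Atp6, rests on an effective length of 26.1 bases. mt-Nd5 had 6384 ± 356 TPM (SD, n = 3) in the ATF4 BKO mice and 6001 ± 184 TPM (SD, n = 2) in the WT mice. mt-Nd4l and mt-Nd4, which lie on 1 messenger, had 18756 and 14757 TPM in the ATF4 BKO mice and 16975 and 11882 TPM in the WT mice, and the shorter mt-Nd4l has an effective length of 98.1 bases. mt-Nd2, mt-Nd3 and mt-Nd6 lay between, from 7694 TPM for mt-Nd3 in the WT mice to 19660 TPM for mt-Nd2 in the ATF4 BKO mice.

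**Figure D4:**
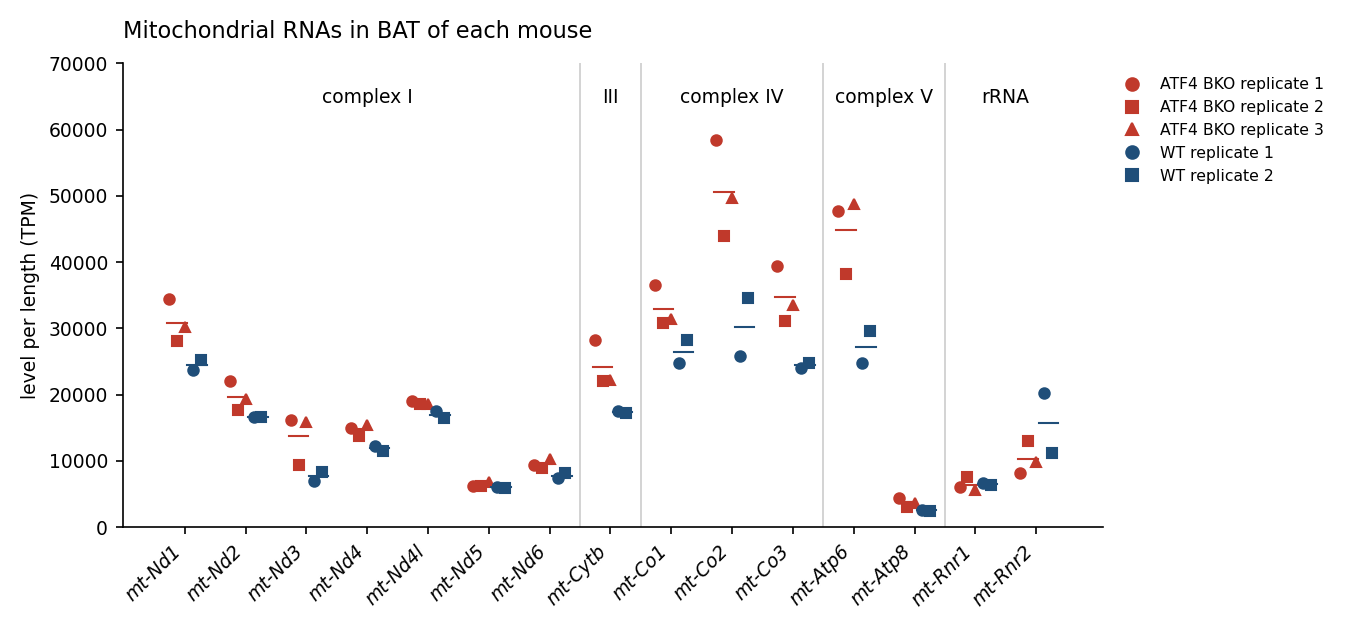
Level per length (y axis, TPM) of the 13 mitochondrial mRNAs and 2 rRNAs in each mouse (red, ATF4 BKO; blue, WT; lines are group means), arranged by complex. By group mean, mt-Co2 and mt-Atp6 are the highest and mt-Atp8 and mt-Nd5 the lowest mRNAs. The level of mt-Atp8 rests on an effective length of 26.1 bases. mt-Rnr2 is the one RNA with WT replicate 1 above all other mice.

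Within the mitochondrial mRNA pool, complex I mRNAs held a smaller part in the ATF4 BKO mice. Their share of mitochondrial mRNA counts was 34.6%, 36.3% and 36.7% in ATF4 BKO replicates 1, 2 and 3 and 41.0% and 38.2% in WT replicates 1 and 2. The groups did not overlap, and the difference was -3.73 percentage points (two-sided exact permutation p = 0.2, adjusted p = 0.467). It was -2.85 points with the copies added and -2.32 without WT replicate 1. Within the sample-name prefixes it was -5.56 and -1.48 points.

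The share of complex V mRNAs, nearly all of it mt-Atp6, was 10.05%, 9.80% and 11.4% in ATF4 BKO replicates 1, 2 and 3 and 8.00% and 8.87% in WT replicates 1 and 2. The difference of 1.99 points (two-sided exact permutation p = 0.2, adjusted p = 0.467) dropped to 0.810 points with the copies added, although the groups still did not overlap. Complex III, at 10.9% ± 0.736 (SD, n = 3) in the ATF4 BKO mice and 10.6% ± 0.713 (SD, n = 2) in the WT mice, overlapped between the genotypes, and its difference of 0.382 points was 0.038 without ATF4 BKO replicate 1. So did complex IV, whose share was 42.8% ± 1.03 in the ATF4 BKO mice and 41.4% ± 2.09 in the WT mice, and whose difference of 1.36 points was 0.870 without ATF4 BKO replicate 1 and -0.12 without WT replicate 1.

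Single mRNAs were also compared by their part of the pool. As deposited, 3 mRNAs (mt-Co2, mt-Atp6 and mt-Co3) held a larger part of it in every ATF4 BKO mouse and 5 (mt-Nd1, mt-Nd2, mt-Nd4l, mt-Nd5 and mt-Co1) a smaller part. With the copies added, mt-Co1 left the second set and the first remained at 3. An order without overlap in a given direction is 1 of the 10 ways to split 5 mice. Other genes are not part of this pool, so no share over all genes can be set beside these counts. mt-Nd2 took 8.03%, 7.84% and 7.87% in ATF4 BKO replicates 1, 2 and 3 and 9.32% and 8.62% in WT replicates 1 and 2. mt-Co3 took 10.04%, 9.63% and 9.49% in the ATF4 BKO mice and 9.35% and 8.99% in the WT mice. mt-Nd2 has none of the 7 copies, and that of mt-Co3 received at most 0.0503% of its pair. Both are nevertheless parts of a pool that includes genes with copies. With the copies added, the ATF4 BKO minus WT difference went from -1.06 to -0.82 points for mt-Nd2 and from 0.55 to 0.71 for mt-Co3. These parts sum to the whole, so a larger part for one mRNA lowers the others, and the differences of single mRNAs were not tested.

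The rRNAs overlapped between the genotypes. mt-Rnr1, the small ribosomal RNA (12S), had 4399, 4877 and 3907 CPM in ATF4 BKO replicates 1, 2 and 3 and 4133 and 3763 CPM in WT replicates 1 and 2. The groups overlapped, and the log2 fold change was 0.15 (standard error 0.19; edgeR, adjusted p = 0.945). mt-Rnr2, the large ribosomal RNA (16S), had 10888, 15145 and 12769 CPM in the ATF4 BKO mice and 22991 and 12208 CPM in the WT mice. WT replicate 1 stood above all other mice and WT replicate 2 among the ATF4 BKO mice. The log2 fold change was -0.44 (standard error 0.33, adjusted p = 0.930 with edgeR), and it was 0.093 without WT replicate 1. Together the rRNAs took 1.42%, 2.07% and 1.59% of counts in the ATF4 BKO mice and 2.80% and 1.69% in the WT mice, a difference of -0.555 points (two-sided exact permutation p = 0.4, adjusted p = 0.56) that was 0.0011 points without WT replicate 1.

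WT replicate 1 also differed in the ratio of the rRNAs, which lie side by side on 1 precursor. Counts of mt-Rnr2 were 2.47, 3.11 and 3.27 times those of mt-Rnr1 in ATF4 BKO replicates 1, 2 and 3 and 5.56 and 3.24 times in WT replicates 1 and 2. The ratio of WT replicate 2 thus lay within the range of the ATF4 BKO mice. Mitochondrial mRNA counts were 14.5, 7.96 and 11.5 times the rRNA counts in the ATF4 BKO mice and 4.56 and 7.94 times in the WT mice. ATF4 BKO replicate 2 and WT replicate 2 were nearly equal in this ratio. Ribosomal RNA with short tails passes a poly(A) selection in part only, so these values are what was left after it.

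The 22 tRNAs were all listed at 0 in all 5 mice. They are between 59 and 75 bases long, and 0 of the 2556 annotated transcripts under 100 bases had any count in any mouse, the shortest transcript with a count having 130 bases. A count of 0 allows up to 3 counts, or between 0.0936 and 0.123 CPM without TMM scaling. Mitochondrial tRNA was therefore not measurable in these tables, and neither genotype can be described for it.

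The nuclear-encoded subunits of the respiratory complexes and ATP synthase had fold changes close to those of all genes tested. Of 81 such genes, all tested, 2 were higher and 3 lower in each ATF4 BKO mouse than in either WT mouse, where 8.95% and 10.6% of all genes tested were. edgeR called 0 of them, and 1 had an unadjusted p under 0.05, against 5.22% of all genes tested in either direction. DESeq2 called 1 lower, against 0.608% of all genes tested. Over these genes the log2 fold change had a median of 0.037, which ranged from -0.049 to 0.13 when each mouse was left out, so its direction did not hold. Of the 81, 54 had a log2 fold change above 0 and 27 below, where 8425 of 16450 genes tested lay above 0. By complex, the medians were 0.034 for 37 subunits of complex I, 0.054 for 4 of complex II, 0.081 for 9 of complex III, 0.043 for 14 of complex IV and -0.036 for 17 of complex V. As deposited, the mitochondrial members had medians of 0.48 for 7 mRNAs of complex I, 0.70 for 3 of complex IV and 0.84 for 2 of complex V. With the copies added, these medians were 0.48, 0.70 and 0.72. The difference between the nuclear and mitochondrial sets was not tested.

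Ndufa1 and Ndufa7, accessory subunits of complex I, were the 2 higher in every ATF4 BKO mouse. Ndufa1 had 132, 121 and 145 CPM in ATF4 BKO replicates 1, 2 and 3 and 120 and 113 CPM in WT replicates 1 and 2, which gave a log2 fold change of 0.19 (standard error 0.13, edgeR adjusted p = 0.920). The lowest ATF4 BKO mouse and the highest WT mouse were nearly equal. The 3 lower in every ATF4 BKO mouse were Ndufs1, the largest subunit of the matrix arm of complex I (log2 fold change -0.10), Atp5g3, a gene for the c ring of ATP synthase (-0.12), and Cox6a2. Cox6a2, the heart and muscle form of a complex IV subunit, had 0.044, 0.249 and 0 CPM in ATF4 BKO replicates 1, 2 and 3 and 4.11 and 14.8 CPM in WT replicates 1 and 2. It fell by DESeq2 (adjusted p = 0.0123) and did not pass the threshold with edgeR (adjusted p = 0.671). Its order among the WT mice was that of the skeletal muscle markers given above, 156 and 2722 CPM.

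**Figure D5:**
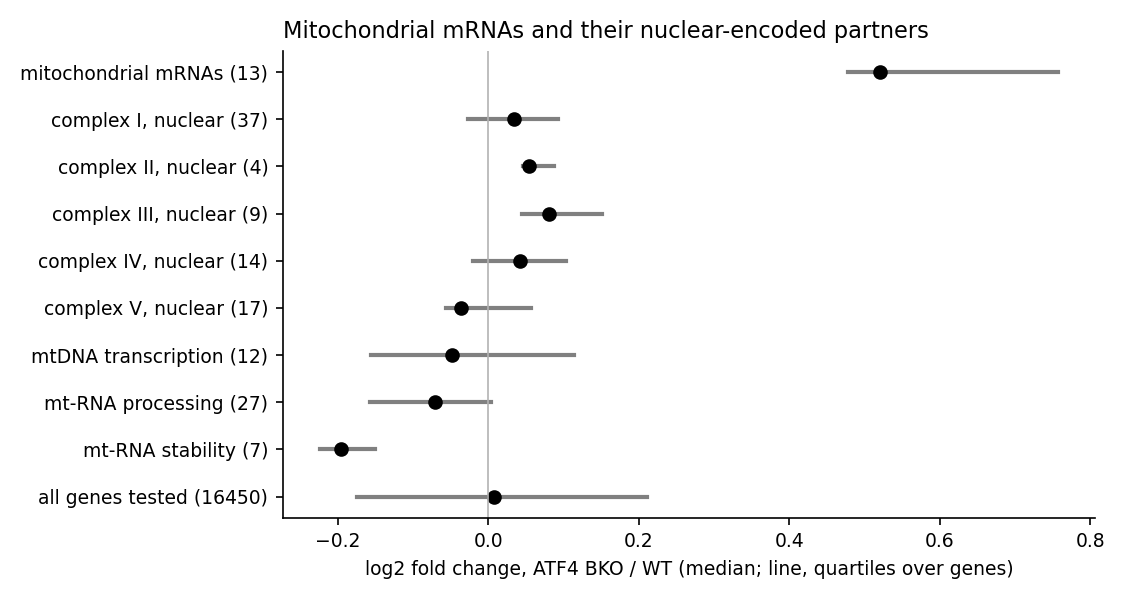
Median log2 fold change (x axis; lines run from the first to the third quartile over genes) between ATF4 BKO and WT mice, for the 13 mitochondrial mRNAs, nuclear-encoded subunits by complex, 3 groups of mitochondrial RNA factors and all genes tested, with the number of genes in brackets. The mitochondrial mRNAs have a median of 0.52, and the medians of the other groups lie between -0.20 and 0.081.

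Factors that make, process or stabilise mitochondrial RNA had a median slightly below 0. Of 46 such genes, all tested, 9 were lower in each ATF4 BKO mouse than in either WT mouse, against 10.6% of all genes tested, and 1 was higher, against 8.95%. edgeR and DESeq2 called 0 of the 46, and 3 had an unadjusted p under 0.05 with edgeR, against 5.22% of all genes tested. The log2 fold change had a median of -0.095, or -0.010 without WT replicate 1. Of the 46, 12 had a log2 fold change above 0 and 34 below. The medians were -0.048 for 12 genes of transcription and replication, -0.070 for 27 of RNA processing and modification and -0.20 for 7 of RNA stability and decay. All of the last 7 had a log2 fold change below 0, as did 8025 of 16450 genes tested. With single mice left out, the median for transcription and replication reached 9.1e-06 and that for processing and modification 0.0014. The median for stability and decay stayed between -0.24 and -0.14. Tfam, the packaging and transcription factor of mitochondrial DNA, had 47.0, 41.6 and 45.3 CPM in the ATF4 BKO mice and 51.3 and 48.1 CPM in the WT mice, a log2 fold change of -0.15 (edgeR adjusted p = 0.930). Polrmt, the polymerase, overlapped between the genotypes (log2 fold change -0.085).

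Lrpprc, which with Slirp protects mitochondrial mRNAs and promotes their polyadenylation, had 142, 136 and 130 CPM in ATF4 BKO replicates 1, 2 and 3 and 198.5 and 159 CPM in WT replicates 1 and 2. It was lower in every ATF4 BKO mouse, and its log2 fold change was -0.39 (standard error 0.14). The adjusted p was 0.910 by edgeR and 0.696 by DESeq2. Without WT replicate 1 the log2 fold change of Lrpprc was -0.21. Fastkd2, needed for the large ribosomal RNA, had 30.4, 29.7 and 29.2 CPM in the ATF4 BKO mice and 41.0 and 36.2 CPM in the WT mice (log2 fold change -0.38). Trmt5, which methylates tRNAs, had 10.02, 9.14 and 10.1 CPM in the ATF4 BKO mice and 13.4 and 13.3 CPM in the WT mice (log2 fold change -0.45). Grsf1, an RNA-binding protein of mitochondrial RNA granules, was the 1 factor higher in every ATF4 BKO mouse, at 309, 288 and 300 CPM against 261 and 278 CPM (log2 fold change 0.15). With edgeR, the adjusted p was 0.910 for Fastkd2 and Trmt5 and 0.936 for Grsf1.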

How the data were processed

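BAT RNA of 3 ATF4 BKO and 2 WT mice was extracted with TRIzol and RNeasy columns, and poly(A) RNA was made into stranded libraries. The authors quantified reads per transcript with Kallisto (version 0.45.0, per the submitters' processing notes, which also name mm10) and deposited estimated counts, not normalized between mice, and TPM for 141450 transcripts. For 93.1% of transcripts the effective length was 199 bases below the length, which fits a mean fragment length set to 200 bases. The annotation the authors used is not given in the sources used here. Replicates are separate mice.

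The deposited estimated counts were summed to genes of GENCODE M21 (GRCm38; 138191 transcripts matched, 52022 genes) and rounded to whole numbers. Genes reaching 10 counts in 2 or more mice were tested with edgeR 4.0.16 in R 4.3.3 (TMM, quasi-likelihood test, genotype as the sole term, Benjamini-Hochberg over all genes, threshold 0.05). The tests were tried on simulated counts with the same dispersion (0.075) for every gene, which does not show how they perform on these data. DESeq2 1.42.0 and limma 3.58.1 on log2(TPM + 1) and log2(TPM + 0.1) were alternatives. Shares were compared with two-sided exact permutation tests over mice (scipy 1.17.1). Nuclear copies were nuclear genes with at least 50% of their 31-base words in a mitochondrial mRNA, compared without gaps. Of 23 nuclear genes sharing any word, 7 met this. Sequences were read from the GENCODE transcripts.

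Members and gene lists were chosen with earlier results of these data known. The rule for named genes took all mRNAs and rRNAs, copies with at least 1% of a pair, and up to 3 genes of each list in each direction among those with no overlap between the genotypes. Tfam and Polrmt were chosen after their values were seen, as were Ucp1 and the pieces of sequence shown. The HISAT2 workflow of the study was not analysed here.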

Additional observations from a re-analysis of the deposited data

How the results depend on the processing

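The WT spread comes from 1 pair of mice, and no exact test over mice could pass the threshold. edgeR called 0 of the 13 mitochondrial mRNAs in each of its alternatives, including each mouse left out and either block, and limma called 0 in both TPM fits. DESeq2 called 2, namely mt-Co2 (log2 fold change 0.95) and mt-Atp6 (0.92), then 0 with copies added and between 0 and 10 without single mice, these DESeq2 settings having been chosen after seeing the data. Over all genes, edgeR called 1 gene, DESeq2 121, edgeR with no filter beyond 1 count 8, limma 0 with a pseudocount of 1 TPM and 2 with one of 0.1 TPM, and edgeR with either block 0. Without single mice this count ran from 0 to 23. The fits with 0 calls over all genes had between 506 and 1431 genes at an unadjusted p under 0.05.

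The median of the mitochondrial mRNAs was 0.33 on both TPM scales, where all genes had a median of -0.12 and -0.17, a distance of 0.45 and 0.50 from all genes, against 0.51 for the counts. With library totals alone it was 0.41, beside -0.099 for all genes. Nuclear-encoded subunits had a median of -0.145 on both TPM scales. RNA factors had -0.21 with library totals alone, -0.24 and -0.26 on the TPM scales, and between -0.17 and -0.010 without single mice. The log2 fold change of mt-Rnr1 was -0.031 on both TPM scales, and that of mt-Rnr2 ran from -0.85 to 0.093 without single mice, the latter without WT replicate 1; the cause was not tested.

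The difference in mRNA share was 8.57 points as a share of TPM and 7.67 per nuclear count, both by construction on another scale. The rRNA difference ran from -1.11 to 0.0011 points and that of complex IV from -0.12 to 2.83 points without single mice. Within the first and second prefix, complex I differed by -5.56 and -1.48 points and complex IV by 3.37 and -1.20. Complex V differed by 0.81 points with copies added. The TPM ratio for mt-Nd6 was chosen after seeing the data.

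Under a replicate block on the number, edgeR called 0 of the 13 mRNAs and their median was 0.51. The deviations of same-numbered mice from their group means correlated at 0.0473 and 0.2. The deviations of the 2 WT mice mirror each other, so these values are not independent. They cannot show whether same-numbered mice were paired. Leaving out a WT mouse leaves 1 in that group, which is then assumed to vary like the ATF4 BKO mice.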
